A study of Mus musculus with 3 samples.

Results

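Surface molecules of B cell activation were followed as a set of 8 genes, Cd69, Cd83, Cd40, Cd86, Icam1, Cd44, Plaur and Slamf7. They are activation and costimulation genes and were chosen with earlier results of these data known. Medians and counts of the set beside all genes are therefore a description. All 8 were measured among the 32285 genes of the count matrix. The cells were spleen B cells of 6 mice, 3 LDHA-deficient and 3 LDHA-sufficient, and LDHA is the muscle-type subunit of lactate dehydrogenase, which turns pyruvate into lactate. Each mouse carried its own antibody hashtag (against CD45 and MHC class I), live B cells were sorted with a gate on GL7, a surface glycan found on germinal centre (GC) B cells and on some activated ones, and the mice were pooled on 1 lane that yielded a transcript, a hashtag and a heavy chain library. The sources used here do not give the promoter or cell type that drives the deletion, any immunisation, or the age and sex of the mice. The mice are numbered 1 to 3 within a genotype, and the numbers pair no mice.

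A resting B cell that meets antigen changes its surface in a known order. CD69 appears early and holds the cell in the lymphoid organ, and CD83 and the ligand CD86 follow as the cell prepares to present antigen to T cells. T cell help then arrives through CD40, a receptor of the tumour necrosis factor receptor family that signals through NF-kappaB. The adhesion molecule ICAM-1 binds LFA-1 and lengthens the contact with T cells, CD44 binds hyaluronan, the urokinase receptor encoded by Plaur concentrates plasminogen activation at the membrane, and SLAMF7 is a self-binding receptor of the SLAM family that is abundant on plasma cells. In the germinal centre, light zone cells that receive T cell help carry more CD83 and CD86 than the dividing dark zone cells, a difference that is used to sort these fractions.

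In the mm10 (GRCm38) assembly with GENCODE annotation, Cd83 lies at chr13:43784775-43803132 on the plus strand, Cd40 at chr2:165055627-165072948 on the plus strand and Plaur at chr7:24462484-24475968 on the plus strand. Cd69 lies at chr6:129267325-129275436 and Cd86 at chr16:36603869-36666081, both on the minus strand. Cd44 at chr2:102811141-102901665 on the minus strand overlaps the small nuclear RNA gene Gm23731 on the plus strand. Icam1 at chr9:21015985-21028817 on the plus strand and Slamf7 at chr1:171632403-171653035 on the minus strand overlap antisense genes, Gm47079 and Gm37787, and Slamf7 also overlaps the microRNA gene Mir7683.

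RefSeq promoter windows of 300 bases (GRCm38.p6, 250 before the start and 50 after it) were matched for 4 of the 8 genes, Plaur, Slamf7, Icam1 and Cd44. These 4 are shown because no window was found for Cd83, Cd69, Cd40 and Cd86, and they were not chosen by their levels. Each line gives the 100 bases that end 21 bases before the start, 5′ to 3′ on the gene's strand, and capitals mark motif matches.
Plaur: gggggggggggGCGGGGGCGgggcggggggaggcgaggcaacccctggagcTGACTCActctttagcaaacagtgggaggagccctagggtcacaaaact
Slamf7: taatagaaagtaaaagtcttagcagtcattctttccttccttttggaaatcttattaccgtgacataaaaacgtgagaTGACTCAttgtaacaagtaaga
Icam1: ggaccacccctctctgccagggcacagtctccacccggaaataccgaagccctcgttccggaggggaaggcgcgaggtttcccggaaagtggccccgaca
Cd44: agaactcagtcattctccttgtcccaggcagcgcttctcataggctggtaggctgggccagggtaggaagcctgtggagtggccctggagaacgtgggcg
The stretches lie at chr7:24462363-24462462 on the plus strand for Plaur, chr1:171649020-171649119 on the minus strand for Slamf7, chr9:21015820-21015919 on the plus strand for Icam1 and chr2:102901686-102901785 on the minus strand for Cd44, and the RefSeq start of Slamf7 falls inside its GENCODE gene. Both strands of each 300-base window were searched for the AP-1 motif TGANTCA, the EGR motif GCGNGGGCG, the cyclic AMP response element TGACGTCA and the NF-kappaB consensus. Plaur held an AP-1 match whose first base is at -69 and an EGR match at -109, and Slamf7 held an AP-1 match at -42. The windows of Icam1 and Cd44 held no match. Of 32851 promoter windows of this length, 7.81% held the AP-1 motif, 5.55% the EGR motif, 1.79% the cyclic AMP response element and 4.51% the NF-kappaB consensus, so a match is a description of these letters and not a binding site.

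After the filters, 1849 cells with a single hashtag remained, of which 1803 were of the B lineage. The LDHA-deficient mice gave 278, 360 and 237 B-lineage cells and between 1108452 and 1687986 UMIs, and the LDHA-sufficient mice gave 312, 324 and 292 cells and between 1425768 and 2132288 UMIs. For 2 of the libraries the labels name blood stem and progenitor cells, whereas Cd79a was found in 99.2% and Ms4a1 in 96.8% of the kept cells and the stem cell genes Kit and Cd34 in 4 cells and 1 cell, so the cells are described as B cells. Clusters were made without the 8 genes and named from marker genes, names that may not match the study's own. They gave 168 GC B-like cells, 164 activated B-like, 145 marginal zone B-like, 714 follicular B-like, 186 interferon-responding B-like and 18 plasma cell-like cells, and 408 B cells stayed unnamed. The interferon-responding group depended on the clustering, with 51 cells at Leiden resolution 1.2 and 68 with the ratio rule for hashtags, beside a separate cluster led by Cplx2 of 129 and 91 cells that was named follicular B-like, so the levels of the interferon-responding state may include cells of another class. GC B-like cells numbered 7, 6 and 5 in the LDHA-deficient mice, against 60, 74 and 16 in the LDHA-sufficient mice, shares that the sort on GL7 can also set. Ldha over all B cells was 46.9, 48.0 and 68.6 CPM (UMIs of the gene per 1000000 UMIs summed over the cells of a mouse) in LDHA-deficient mice, against 237.8, 238.9 and 156.4 CPM in LDHA-sufficient mice.

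The levels of the 8 genes differed between B cell states, and are given as a description with no test, because the states were themselves defined from the transcripts of these cells. Levels are means of CPM over mice ± SD, with n = 6 mice in every state except GC B-like cells, where n = 3 LDHA-sufficient mice had 10 or more cells.

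Cd69, the early retention receptor, had similar levels in 3 states. It averaged 81.5 ± 50.2 CPM in activated, 74.6 ± 26.4 CPM in interferon-responding and 73.7 ± 22.6 CPM in follicular B-like cells, and activated cells were above interferon-responding cells in 2 of 6 mice. Unnamed B cells had 45.2 ± 17.7 CPM and marginal zone B-like cells 37.4 ± 24.9 CPM, and the lowest level was in GC B-like cells, at 23.4 ± 2.74 CPM.

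Cd83, whose product stabilises MHC class II and CD86 at the surface, marked the activated state. It averaged 350.4 ± 111.6 CPM in activated B-like cells and 163.7 ± 30.3 CPM in follicular B-like cells, the next state in order, and was higher in the activated cells of all 6 mice. Unnamed B cells had 161.3 ± 42.8 CPM, marginal zone 143.1 ± 52.4 CPM, interferon-responding 137.5 ± 22.0 CPM and GC B-like cells 126.8 ± 10.6 CPM. From follicular cells downward, no state stood above its neighbour in more than 4 of 6 mice. Cells with at least 1 Cd83 UMI made up 70.7% of activated and 44.6% of GC B-like cells. With every cell thinned to 2000 UMIs, which left out 2 activated and 4 GC B-like cells, the shares were 46.3% and 17.1%. Mouse medians were 3582 to 6311 UMIs in activated and 9638 to 16224 UMIs in GC B-like cells, and plasma cell-like cells, at 7108 to 21990 UMIs, held a Cd83 UMI in 5.56% of cells.

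Cd40, the receptor for T cell help, had close levels in 4 states. It averaged 98.4 ± 47.6 CPM in activated, 91.0 ± 23.6 CPM in marginal zone, 85.9 ± 16.8 CPM in follicular and 80.7 ± 18.0 CPM in interferon-responding B-like cells, and activated cells exceeded marginal zone cells in 2 of 6 mice. GC B-like cells were lowest, at 46.7 ± 15 CPM, and unnamed B cells, at 64.7 ± 6.66 CPM, were above them in all 3 mice that had both.

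Cd86, the ligand of CD28, was highest in the GC B-like cells of LDHA-sufficient mice, at 66.8 ± 25.7 CPM. Interferon-responding B-like cells followed at 40.1 ± 17.7 CPM, below GC B-like cells in 2 of 3 mice. The 7, 6 and 5 GC B-like cells of LDHA-deficient mice had 12.9, 11.9 and 10.5 CPM, with 1 UMI per mouse, so the rank does not cover these mice. Marginal zone B-like cells had 32.6 ± 17.2 CPM, follicular 31.5 ± 13.9 CPM, activated 27.5 ± 17.9 CPM and unnamed B cells 24.2 ± 10.9 CPM, values within 1 SD of each other. Within the germinal centre, Cd83 and Cd86 were both higher in the less mitotic cluster than in the mitotic one in each of the 2 mice with enough cells. Cd86 reached 62.3 and 86.9 CPM in the less mitotic cells of LDHA-sufficient mice 1 and 2, against 37.1 and 50.9 CPM in their mitotic cells. Cd83 reached 202.4 and 141.6 CPM in the less mitotic cells, against 106.5 and 101.9 CPM in the mitotic cells.

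Icam1, the LFA-1 ligand, averaged 103.5 ± 68.6 CPM in activated and 67.5 ± 23.0 CPM in marginal zone B-like cells, with activated cells above in 4 of 6 mice. GC B-like cells had 66.2 ± 11.6 CPM, follicular 45.0 ± 13.4 CPM, interferon-responding 43.1 ± 17.6 CPM and unnamed B cells the lowest level, 32.2 ± 14.6 CPM. Cd44, the hyaluronan receptor, averaged 111.2 ± 54.9 CPM in activated and 70.8 ± 16.6 CPM in GC B-like cells, with activated cells above in 2 of 3 mice. Marginal zone B-like cells had 58.3 ± 15 CPM of Cd44, follicular 51.9 ± 21.1 CPM, interferon-responding 40.1 ± 16.4 CPM and unnamed B cells 28.6 ± 13.5 CPM. The GC means rest on the 3 LDHA-sufficient mice only, and in these mice activated and GC B-like cells were close. Activated cells of these mice averaged 74.4 CPM of Cd44, against 70.8 CPM in GC B-like cells. For Icam1 the means were 70.3 and 66.2 CPM. The top rank of activated over GC B-like cells for both genes also depended on the scale, because the mean of log-normalised values was highest in GC B-like cells.

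Plaur, the urokinase receptor gene, was lowest in the GC B-like cells of LDHA-sufficient mice. It averaged 4.83 ± 0.447 CPM there, against 84.6 ± 44.9 CPM in marginal zone B-like, 71.0 ± 61.6 CPM in activated 46.2 ± 14.1 CPM in follicular B-like and 41.6 ± 13.1 CPM in unnamed B cells. Marginal zone cells exceeded activated cells in 5 of 6 mice, and interferon-responding cells, at 29.8 ± 12.5 CPM, exceeded GC B-like cells in all 3 mice that had both. With the ratio rule for hashtags, Plaur in GC B-like cells was 22.5, 4.79 and 193.6 CPM in LDHA-deficient mice, against 4.90, 27.7 and 16.9 CPM in LDHA-sufficient mice, so its level there depended on the hashtag calls. With the main calls, a Plaur UMI was found in 5.95% of GC B-like and 33.1% of marginal zone B-like cells, although GC B-like cells were deeper, with 0 of 18 plasma cell-like cells beside them.

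Slamf7, lowest in unnamed B cells, was highest in the germinal centre. It averaged 172.1 ± 18.0 CPM in GC B-like cells and 85.4 ± 28.2 CPM in activated B-like cells, and was higher in GC B-like cells in all 3 mice. Marginal zone B-like cells had 81.6 ± 8.20 CPM, follicular 79.4 ± 4.81 CPM, interferon-responding 75.9 ± 37.5 CPM and unnamed B cells 58.1 ± 27.1 CPM. Mitotic GC B-like cells had 201.7 and 195.5 CPM of Slamf7, against 160.9 and 112.6 CPM in the less mitotic cells of the same mice, the reverse of Cd83 and Cd86. The 18 plasma cell-like cells, summed over mice, held 402.6 CPM of Slamf7 (exact Poisson 95% interval 334.9 to 480.0, counting error only). The same cells held 0 Cd86 and 0 Plaur UMIs and 1 UMI each of Cd83 and Cd40. The 46 myeloid or dendritic cells, left out of every comparison, held 299.7 CPM of Cd44 (254.0 to 351.3) and 88.7 CPM of Plaur (64.7 to 118.7).

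**Figure D1:**
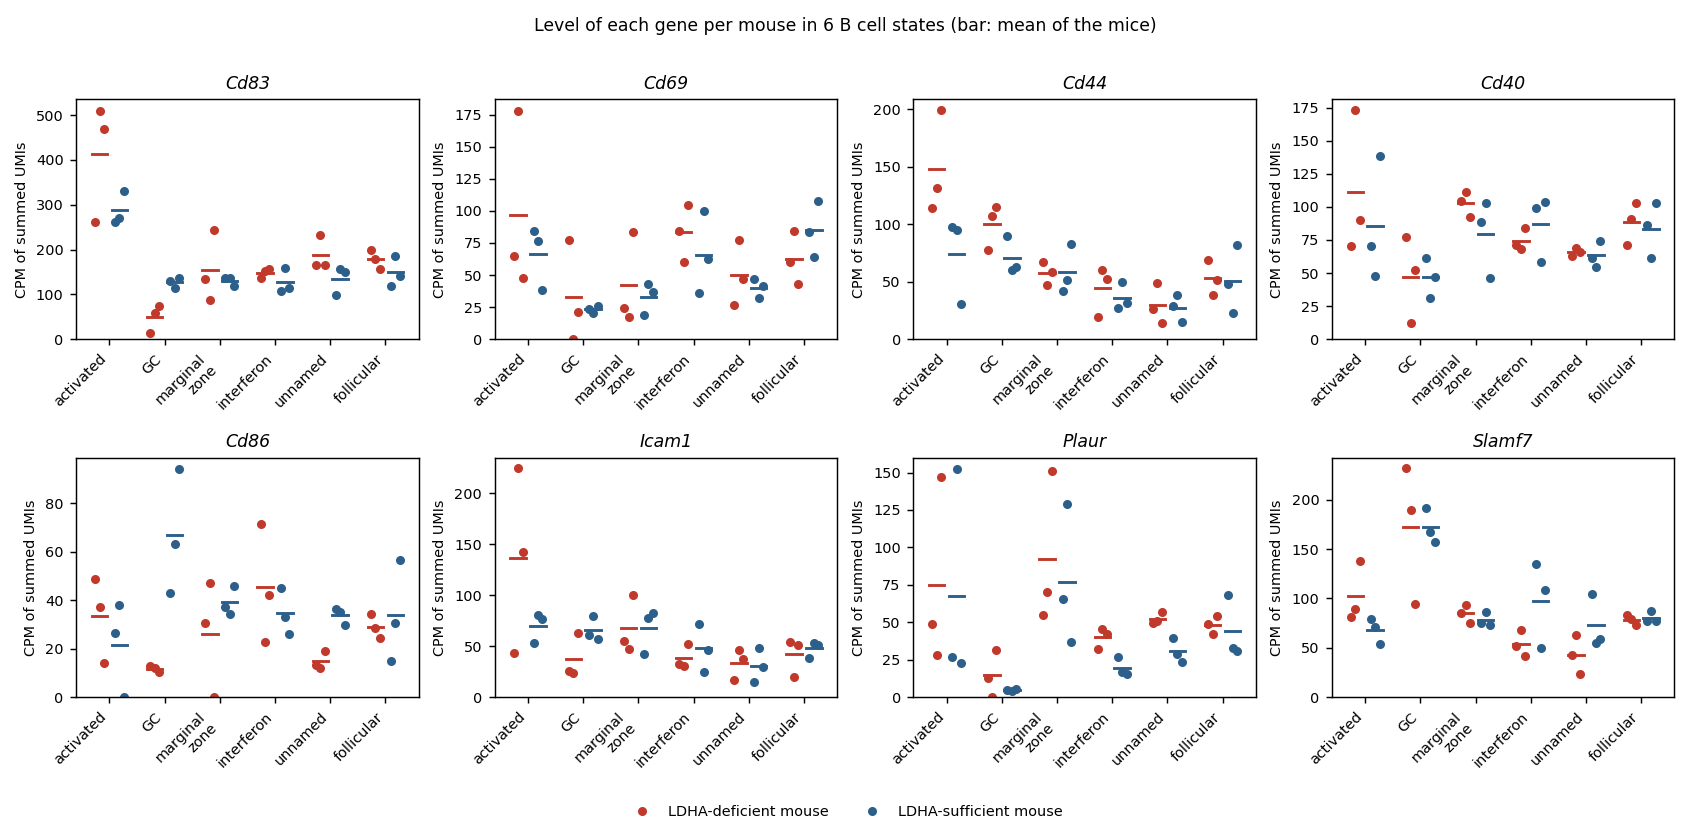
Level of each gene (vertical axis, CPM of UMIs summed per mouse) in 6 B cell states (horizontal axis), with 1 point per mouse, LDHA-deficient mice in red to the left of LDHA-sufficient mice in blue, and a bar at the mean. Cd83 is highest in activated cells, Slamf7 in GC B-like cells, and Plaur is near 0 in the GC B-like cells of LDHA-sufficient mice with these hashtag calls; GC points of LDHA-deficient mice rest on 5 to 7 cells.

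The genes whose level followed each member most closely across the 6 states were ranked by Pearson's r of log2(CPM + 1) among 4566 genes, a description over 6 points that come from the same libraries. For Cd83 they were Ccl22 (r = 0.994), a chemokine of activated B and dendritic cells, Atad3a (0.994) and the haemoglobin gene Hba-a2 (0.992), and red cell genes made up 6.88 to 51.7% of the UMIs of 4 activated B-like cells. Cd69 was followed by Nfkbie (0.983) and Relb (0.958), an inhibitor and a subunit of NF-kappaB, and by Sec62 (0.975). Plaur was followed by Rasgef1b (0.976), the adhesion receptor gene Adgre5 (0.976) and the chemokine receptor gene Ccr6 (0.951). Slamf7 was followed by Ube2g1 (0.997), the retinoblastoma family gene Rbl1 (0.996) and the cell division gene Arhgap19 (0.992). For Icam1 the first gene was Cd44 (0.97), before Gusb and Thoc1 (0.968 each). For Cd44 they were Snd1 (0.983), Thap12 (0.976) and Fam98a (0.974), for Cd40 Adpgk (0.984), Ecd (0.982) and Runx3 (0.974), and for Cd86 Hist1h2bm (0.985), Gtf2a2 (0.979) and Ccng1 (0.978).

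The comparison of LDHA-deficient with LDHA-sufficient mice asks what LDHA contributes to B cell activation. Over all B cells, Cd83 and Plaur were higher in every LDHA-deficient mouse and Slamf7 was lower in every one, yet none of the 8 genes passed the test at an adjusted p of 0.05. That threshold was met by 0.861% of the 9176 genes tested (edgeR quasi-likelihood test, Benjamini-Hochberg adjustment). At an unadjusted p under 0.05, 4 of the 8 genes were counted, beside 17% of all genes. The median log2 difference, deficient over sufficient, was 0.29 for the 8 genes and 0.02 for all genes.

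Cd83 had 168.4, 218.6 and 219.2 CPM in LDHA-deficient mice, against 128.0, 151.7 and 147.3 CPM in LDHA-sufficient mice. The groups did not overlap, as for 10.2% of genes that were higher in every LDHA-deficient mouse, and the log2 difference was 0.52 (SE 0.13, edgeR adjusted p = 0.0676). Plaur had 44.5, 43.8 and 79.4 CPM in LDHA-deficient mice, against 28.6, 35.5 and 21.7 CPM in LDHA-sufficient mice. Mouse 3 of each genotype set the extremes of Plaur, the groups did not overlap, and the log2 difference was 0.93 (SE 0.23, edgeR adjusted p = 0.079).

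Slamf7 had 81.8, 81.8 and 76.7 CPM in LDHA-deficient mice, against 157.6, 121.3 and 95.4 CPM in LDHA-sufficient mice. The LDHA-deficient mice were close together and all below the others, as for 9.69% of genes, and the log2 difference was -0.62 (SE 0.15, edgeR adjusted p = 0.0676). Cd86 had 33.4, 25.5 and 18.9 CPM in LDHA-deficient mice, against 32.4, 46.0 and 42.1 CPM in LDHA-sufficient mice, which overlapped at 1 mouse (log2 difference -0.60, SE 0.22, edgeR adjusted p = 0.193).

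The other 4 genes overlapped between the genotypes. Cd69 had 51.6, 81.2 and 52.3 CPM in LDHA-deficient mice, against 43.1, 41.2 and 57.5 CPM in LDHA-sufficient mice (0.44, SE 0.22). Cd40 had 72.3, 91.2 and 85.7 CPM in LDHA-deficient mice, against 67.1, 46.9 and 82.1 CPM in LDHA-sufficient mice (0.38, SE 0.20). The log2 differences of Cd44 and Icam1 were 0.20 (95% interval -0.12 to 0.51) and 0.07 (-0.34 to 0.48).

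The calls depended on the test, the filter, the clustering, the cells used per mouse and 1 mouse left out. DESeq2 called Cd83 (adjusted p = 0.05, just under the threshold before rounding) and Plaur (adjusted p = 0.0396), beside 203 of 9176 genes. Without a filter on low counts edgeR called Cd83, Plaur and Slamf7, beside 682 of 16615 genes. At Leiden resolution 0.4 edgeR called Plaur (adjusted p = 0.0441), beside 111 of 9176 genes. It also called Plaur with the 8 genes in the clustering (adjusted p = 0.0478), beside 89 of 9264 genes. With equal cells per mouse it called Slamf7 (adjusted p = 0.0445), beside 145 of 8617 genes. Without LDHA-sufficient mouse 3, which had the fewest GC B-like cells of its genotype, edgeR called 5 of the 8, beside 1459 of 9582 genes. The edgeR log2 differences there were 0.57 for Cd83 (adjusted p = 0.00128), 0.81 for Plaur (0.0228), -0.75 for Slamf7 (4.8e-05), 0.62 for Cd69 (0.031) and 0.59 for Cd40 (0.0101). Over the 16 alternatives, edgeR and DESeq2 adjusted p ranged between 0.00128 and 0.328 for Cd83, between 6.48e-05 and 0.316 for Plaur and between 4.8e-05 and 0.314 for Slamf7, while their directions held in all 16.

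**Figure D2:**
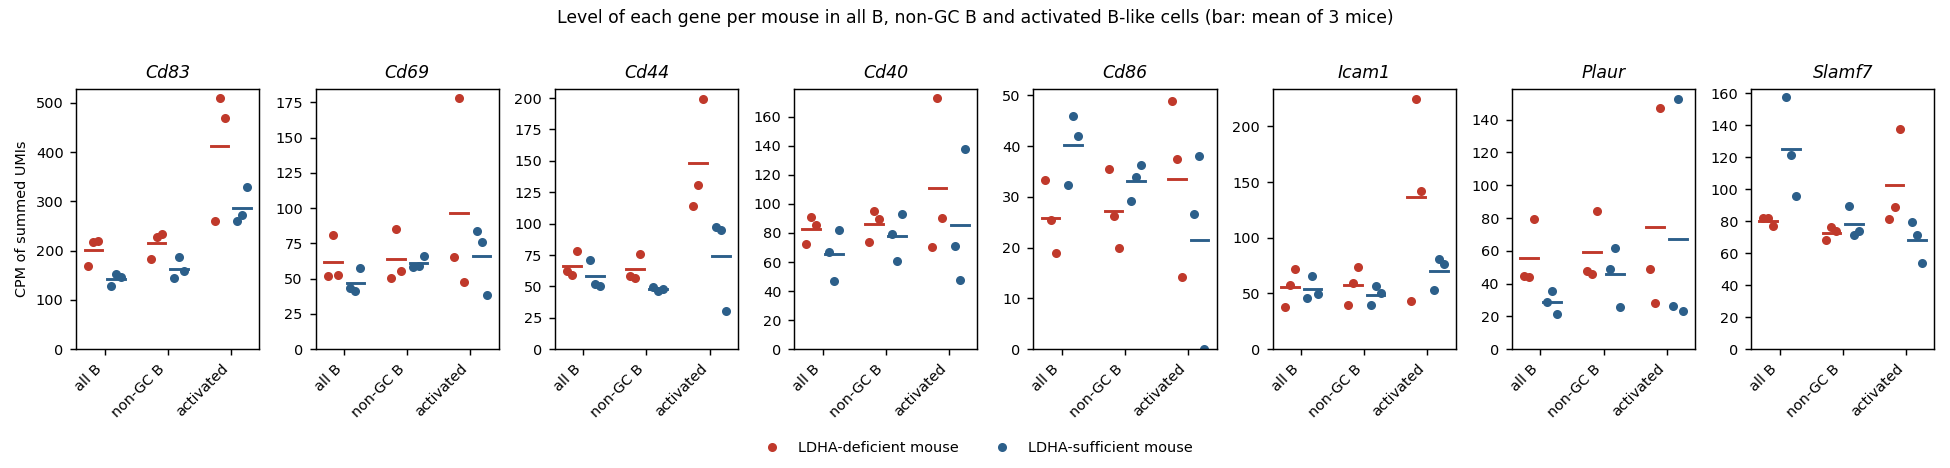
Level of each gene per mouse (vertical axis, CPM) in all B, non-GC B and activated B-like cells, LDHA-deficient mice in red left of LDHA-sufficient mice in blue, with a bar at the mean of 3 mice. Plaur and Slamf7 are separated over all B cells and overlap in non-GC B cells, and Cd44 and Slamf7 are higher in every LDHA-deficient mouse in activated cells.

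The sums over all B cells mixed states in different shares. GC B-like cells gave 6.15, 4.99 and 8.62% of all B-lineage UMIs in LDHA-deficient mice, against 38.1, 43.6 and 13.4% in LDHA-sufficient mice. They gave 17.5, 11.6 and 10.6% of the Slamf7 UMIs in LDHA-deficient mice, against 46.4, 60.2 and 22.1% in LDHA-sufficient mice. For Plaur, the GC share was 1.79, 0 and 3.41% in LDHA-deficient mice, against 6.56, 5.33 and 3.23% in LDHA-sufficient mice, so almost all Plaur came from other states in both genotypes. GC B-like cells still added to the total UMIs that CPM are scaled by. Plaur in LDHA-sufficient mice was 28.6, 35.5 and 21.7 CPM over all B cells. Without GC B-like and plasma cell-like cells it was 49.0, 61.8 and 25.9 CPM. GC B-like cells gave 2.38 to 4.76% of Cd86 UMIs in LDHA-deficient mice, against 30.0 to 59.8% in LDHA-sufficient mice, and 2.06 to 7.50% of Icam1 UMIs in LDHA-deficient mice, against 15.7 to 52.5% in LDHA-sufficient mice. Plasma cell-like cells also carried Slamf7, with 6, 0 and 2 UMIs in LDHA-deficient mice, against 76, 20 and 20 UMIs in LDHA-sufficient mice.

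**Figure D3:**
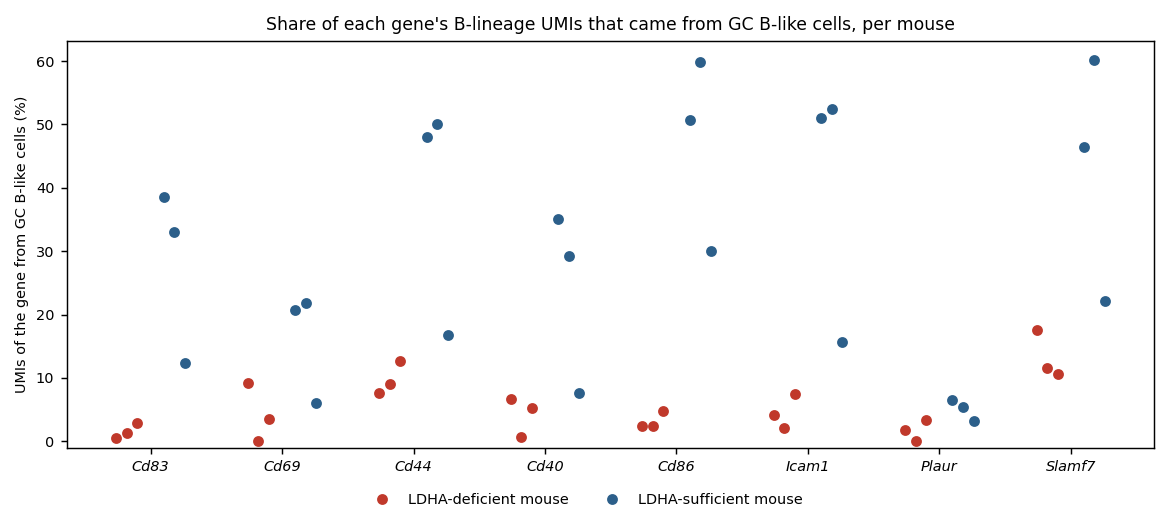
Share of each gene's B-lineage UMIs that came from GC B-like cells (vertical axis, percent), 1 point per mouse, LDHA-deficient mice in red left of LDHA-sufficient mice in blue. Slamf7, Cd86, Icam1 and Cd44 have the highest shares in LDHA-sufficient mice 1 and 2, and Plaur stays below 7% in every mouse.

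Without GC B-like and plasma cell-like cells, the differences of Plaur, Slamf7 and Cd86 were smaller and Cd83 kept most of its own. In these non-GC B cells 0 of the 8 genes passed the edgeR test, beside 0.0931% of 8589 genes, and 2 had an unadjusted p under 0.05, beside 5.13% of genes. DESeq2 called 0 of the 8. The median log2 difference was 0.19 for the 8 genes and 0.00 for all genes.

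Cd83 had 182.9, 227.0 and 234.6 CPM in the non-GC B cells of LDHA-deficient mice, against 143.6, 186.2 and 158.6 CPM in LDHA-sufficient mice. Only LDHA-deficient mouse 1 and LDHA-sufficient mouse 2 overlapped, and the log2 difference of 0.39 (SE 0.11, edgeR adjusted p = 0.37) stayed between 0.30 and 0.50 in the 17 alternatives, with adjusted p between 0.0534 and 1. Cd44 had 58.1, 56.7 and 75.6 CPM in LDHA-deficient mice, against 49.9, 46.1 and 48.3 CPM in LDHA-sufficient mice. It was higher in every LDHA-deficient mouse, as were 5.39% of genes, with a log2 difference of 0.37 (SE 0.16, edgeR adjusted p = 0.935), which came to -0.01 with hashtags called by the ratio rule.

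Plaur had 47.7, 46.1 and 84.5 CPM in the non-GC B cells of LDHA-deficient mice, against 49.0, 61.8 and 25.9 CPM in LDHA-sufficient mice, and the groups overlapped (0.33, SE 0.37). Slamf7 had 68.5, 76.1 and 73.6 CPM in LDHA-deficient mice, against 89.4, 71.4 and 74.1 CPM in LDHA-sufficient mice, also overlapping (-0.11, SE 0.14). The log2 differences of Cd86, Icam1, Cd40 and Cd69 were -0.28, 0.23, 0.15 and 0.09, and edgeR adjusted p was between 0.935 and 0.988 for every gene but Cd83.

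**Figure D4:**
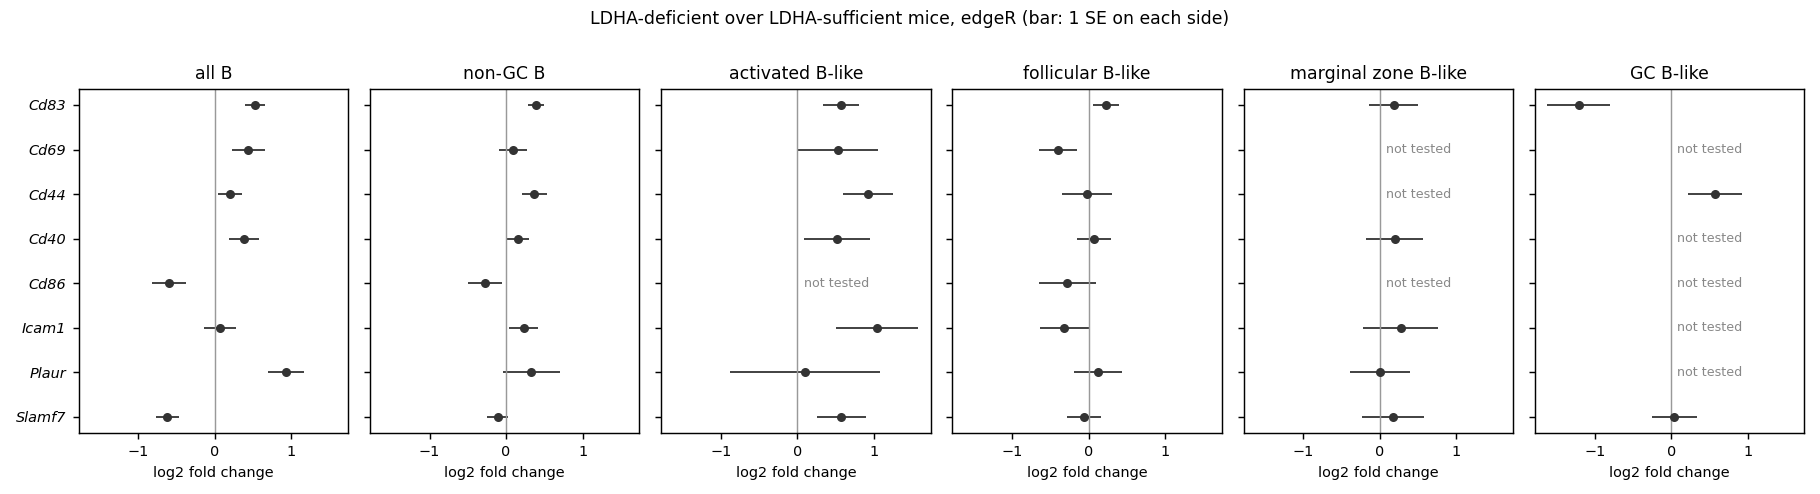
Log2 difference of each gene, LDHA-deficient over LDHA-sufficient (horizontal axis), in 6 groups of cells, with a bar of 1 SE on each side from edgeR. All 7 genes tested in activated B-like cells lie above 0, as do 51.5% of all genes tested there. Cd83 lies above 0 in 5 panels and below 0 in GC B-like cells.

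In activated B-like cells, named from genes induced by stimulation such as Myc and Nr4a1, 0 of 7 genes tested passed the edgeR test. The 7 genes past the filter on low counts all had positive log2 differences, as had 51.5% of all genes tested. Their signs come from the same 6 mice and are not independent of each other. The state held 30, 29 and 28 cells in LDHA-deficient mice, against 25, 28 and 24 cells in LDHA-sufficient mice. The threshold was met by 0.0824% of 3640 genes, and 2 of the 7 genes had an unadjusted p under 0.05, beside 6.37% of all genes. DESeq2 also called none of them. The median log2 difference was 0.57 for the 7 genes and 0.01 for all genes, and Cd86 was left out with 9, 8 and 3 UMIs in LDHA-deficient mice, against 6, 8 and 0 UMIs in LDHA-sufficient mice. Ldha differed most clearly here, with 48.9, 42.1 and 61.6 CPM in LDHA-deficient mice, against 540.0, 542.9 and 452.7 CPM in LDHA-sufficient mice (log2 difference -3.30, edgeR adjusted p = 4.02e-10).

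Cd83 had 260.7, 509.9 and 469.3 CPM in the activated cells of LDHA-deficient mice, against 261.2, 271.4 and 330.0 CPM in LDHA-sufficient mice. LDHA-deficient mouse 1 lay at the level of the LDHA-sufficient mice and the other two above them (0.57, SE 0.23, edgeR adjusted p = 0.709). Cd44 had 114.1, 131.0 and 199.1 CPM in LDHA-deficient mice, against 97.4, 95.2 and 30.7 CPM in LDHA-sufficient mice. The groups did not overlap, as for 5.49% of genes that were higher in every LDHA-deficient mouse, and the log2 difference was 0.92 (SE 0.33, edgeR adjusted p = 0.638).

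Slamf7 had 81.5, 88.9 and 137.5 CPM in the activated cells of LDHA-deficient mice, against 79.7, 71.4 and 53.7 CPM in LDHA-sufficient mice. It was higher in every LDHA-deficient mouse (0.57, SE 0.32), the opposite direction to all B cells, and came to -0.21 with the ratio rule for hashtags. Icam1 had 43.5, 224.6 and 142.2 CPM in LDHA-deficient mice, against 53.1, 81.0 and 76.7 CPM in LDHA-sufficient mice, with LDHA-deficient mouse 1 lowest of all (1.04, SE 0.54). Without LDHA-deficient mouse 2, the highest of its genotype for Icam1, Cd83 and Cd69, the log2 differences were 0.41 for Icam1, 0.32 for Cd83, -0.35 for Cd69 and -0.03 for Cd40. The log2 differences of Cd69, Cd40 and Plaur were 0.53, 0.52 and 0.10, with 95% intervals of -0.48 to 1.54, -0.33 to 1.37 and -1.83 to 2.02.

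Among the markers measured beside these values, the NF-kappaB subunits and inhibitors, 14 genes with none at 0, summed to 1999, 2311 and 2100 CPM in the activated cells of LDHA-deficient mice, against 1470, 1610 and 1711 CPM in LDHA-sufficient mice. Costimulation and checkpoint genes summed to 2710, 2105 and 2285 CPM, against 2019, 1857 and 1987 CPM. CD40 and TNF receptor signalling genes summed to 1255, 1544 and 1370 CPM, against 1045, 1124 and 1151 CPM. In every other list the groups overlapped, and how often sums of other genes separate was not counted. Nfkbid of the NF-kappaB list and Traf1 of the CD40 list also helped to name the activated state. Immediate early genes, 24 in all with 2 at 0, summed to 1554, 3139 and 1422 CPM in LDHA-deficient mice, with mouse 2 apart, against 1456, 1586 and 1688 CPM in LDHA-sufficient mice. Dissociation stress genes, 15 in all, summed to 5812, 5665 and 6503 CPM in LDHA-deficient mice, against 6423, 6377 and 6622 CPM in LDHA-sufficient mice, and the part of these lists in the results was not tested. Red cell genes summed to 21.7, 14.0 and 777.4 CPM in LDHA-deficient mice, against 5617, 4.76 and 33733 CPM in LDHA-sufficient mice. Without the 4 activated cells in which red cell genes were over 1% of UMIs, the log2 differences of Cd83, Cd44, Icam1 and Slamf7 were 0.54, 0.97, 1.05 and 0.55.

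In follicular B-like cells, the resting recirculating cells, 0 of 8 genes passed the edgeR test, beside 0.0887% of 5640 genes, 0 had an unadjusted p under 0.05, beside 4.63% of genes, and DESeq2 called none. The log2 differences ran between -0.40 for Cd69 (95% interval -0.88 to 0.08) and 0.23 for Cd83 (-0.10 to 0.55), with a median of -0.04. In marginal zone B-like cells, LDHA-sufficient mouse 3 was left out with 17 cells, so 3 mice were set against 2. There, 0 of 5 genes tested passed, beside 0.036% of 2780 genes, 0 had an unadjusted p under 0.05, beside 4.78% of genes, and DESeq2 called none. The log2 differences were 0.27 for Icam1, 0.19 for Cd40, 0.18 for Cd83, 0.17 for Slamf7 and 0.00 for Plaur.

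In GC B-like cells, Cd83 and Cd86 were lower in every LDHA-deficient mouse and Cd44 was not. Cd83 had 12.9, 59.3 and 73.3 CPM in LDHA-deficient mice, against 129.3, 115.3 and 136.0 CPM in LDHA-sufficient mice, which rest on 1, 5 and 7 UMIs in LDHA-deficient mice and 105, 106 and 26 UMIs in LDHA-sufficient mice. The log2 difference was -1.21 (SE 0.41, edgeR adjusted p = 0.529). Of the 2713 genes past the filter on low counts, 10% were lower in every LDHA-deficient mouse, a share that does not cover Cd86. Cd86 was under the filter on low counts, at 12.9, 11.9 and 10.5 CPM in LDHA-deficient mice with 1 UMI each, against 43.1, 63.1 and 94.1 CPM in LDHA-sufficient mice with 35, 58 and 18 UMIs. Cd44 had 77.4, 106.8 and 115.1 CPM in LDHA-deficient mice, against 89.9, 59.8 and 62.8 CPM in LDHA-sufficient mice (0.57, SE 0.35), and Slamf7 differed by 0.04 (SE 0.29).

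Of the 3 genes tested in GC B-like cells, 0 passed the edgeR test, beside 0% of 2713 genes, 1 had an unadjusted p under 0.05, beside 7.34% of genes, and DESeq2 called none of them and 4 genes in all. The Cd83 UMIs of LDHA-deficient mice came from 1, 2 and 1 cells. With hashtags called by the ratio rule, these mice had 14, 11 and 14 GC B-like cells and Cd83 at 16.9, 148.6 and 266.2 CPM, against 132.4, 110.0 and 139.5 CPM in LDHA-sufficient mice, and the log2 difference was 0.29. Cd86 stayed lower in every LDHA-deficient mouse by that rule, with 28.1, 33.6 and 18.1 CPM against 38.2, 60.4 and 76.1 CPM in LDHA-sufficient mice. These values rest on 5, 7 and 3 UMIs in LDHA-deficient mice and 39, 61 and 18 UMIs in LDHA-sufficient mice. The share of all genes that were lower in every LDHA-deficient mouse was not counted by that rule.

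The difference between the genotype effects in GC B-like and in non-GC B cells was tested directly, with the mouse as a block. Cd83 was called, with a difference of -1.81 on the log2 scale (SE 0.40, edgeR adjusted p = 0.0247), beside 0.164% of 9165 genes and a median of -0.17 over all genes. At an unadjusted p under 0.05, 3 of the 8 genes were counted, beside 7.28% of all genes. Cd83 was not called by DESeq2 (-1.70, adjusted p = 0.785) or with median-of-ratios scaling in edgeR (-1.68, adjusted p = 0.0601), and came to -0.28 with the ratio rule for hashtags (edgeR adjusted p = 0.948). The edgeR call was also lost without any 1 of LDHA-deficient mice 1, 2 and 3 and LDHA-sufficient mouse 1, at -1.43, -1.84, -2.16 and -1.64 (adjusted p = 0.392, 0.0962, 0.0665 and 0.127). The differences of Cd86, Icam1 and Plaur were -2.18 (SE 0.76), -1.16 (SE 0.52) and 1.39 (SE 0.97), with edgeR adjusted p of 0.361, 0.594 and 0.809, and those of the other 4 genes lay between -0.26 and 0.30.

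Heavy chains gave a division of the cells by V segment sequence, made without the clusters. Of 1113 B-lineage cells with a heavy chain, 70 had a V segment identity to germline under 0.99 and are called mutated, and 44 of these were GC B-like. Only LDHA-sufficient mice 1 and 2 had 10 or more cells on both sides, with 21 and 30 mutated cells and 177 and 173 germline cells, so the paired fit had 1 residual degree of freedom. Of their mutated cells, 14 and 25 were GC B-like, so the division was not independent of the states. Of the 8 genes, 2 were called, beside 12.8% of 7775 genes, and 3 had an unadjusted p under 0.05, beside 24.2% of genes.

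Slamf7 rose in mutated cells, with 312.4 and 189.7 CPM, against 126.4 and 101.8 CPM in germline cells of the same mice. The log2 difference was 1.02 (SE 0.22, edgeR adjusted p = 0.00218). Cd40 fell, with 25.6 and 42.5 CPM in mutated cells, against 88.2 and 53.1 CPM in germline cells (-1.12, SE 0.35, edgeR adjusted p = 0.0364). Cd44 had 90.9 and 70.8 CPM in mutated cells, against 59.4 and 51.3 CPM in germline cells, higher in both mice without passing the test (0.45, edgeR adjusted p = 0.32). Cd83 had 76.7 and 158.5 CPM in mutated cells, against 149.3 and 158.3 CPM in germline cells, and the log2 difference was -0.53 (edgeR adjusted p = 0.198).

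Both calls depended on the choices made. With a minimum of 5 cells on each side, edgeR gave -0.36 for Cd40 (adjusted p = 0.79) and 0.89 for Slamf7 (adjusted p = 0.00811). LDHA-sufficient mouse 3, with 6 mutated cells, had 232.0 CPM of Cd40 in mutated and 76.5 CPM in germline cells. Its Slamf7 levels were 87.0 and 88.3 CPM. DESeq2 called neither Slamf7 (1.04, adjusted p = 0.252) nor Cd40 (-1.10, adjusted p = 0.831), and with 2 clones shared by 4 or more mice kept in, edgeR gave 0.62 for Slamf7 (adjusted p = 0.18) and -0.22 for Cd40 (adjusted p = 0.874) and called Cd44 instead (0.94, adjusted p = 0.0183).

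Other genes of the same pathways, from lists that hold none of the 8 genes, did not pass the test in non-GC B cells. None of the 12 genes tested among 28 costimulation and checkpoint ligands and receptors passed the edgeR test, with a median log2 difference of 0.04 beside 0.00 for all genes, and Icosl, the ligand of ICOS, had 0.30 (SE 0.14). None of 5 SLAM family genes (median 0.08), 22 adhesion molecules (-0.01), 22 genes of CD40 and TNF receptor signalling (0.07), 14 NF-kappaB subunits and inhibitors (0.06) or 14 immediate early genes (0.09) passed either. By smallest p, the immediate early transcription factors Nr4a1, Egr3 and Myc had differences of 1.48 (SE 0.33), 0.63 (SE 0.14) and 0.45 (SE 0.14). The NF-kappaB regulators Nfkbiz and Nfkbid had 0.65 (SE 0.21) and 0.80 (SE 0.37), and Tnfaip3 and Traf1, which act in TNF receptor signalling, 0.59 (SE 0.22) and 0.60 (SE 0.28).

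Over all B cells, 2 of the 14 immediate early genes tested rose, Egr3 by 1.03 (SE 0.15, edgeR adjusted p = 0.00544) and Myc by 0.71 (SE 0.14, edgeR adjusted p = 0.0335). None of 13 costimulation, 5 SLAM family, 23 adhesion, 23 CD40 and TNF receptor or 14 NF-kappaB genes passed there, with medians of 0.24, 0.26, 0.10, 0.16 and 0.29 beside 0.02 for all genes. Of the 8 plasma cell markers, Derl3, a factor of protein disposal at the endoplasmic reticulum, and Edem1, which acts in the same process, fell by 1.64 and 0.83 on the log2 scale (edgeR adjusted p = 0.0306 and 0.0335). Summed plasma cell markers were 848.2, 370.3 and 685.6 CPM in LDHA-deficient mice, against 2742, 1530 and 3170 CPM in LDHA-sufficient mice, and their part in the difference of Slamf7 over all B cells was not tested.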

How the data were processed

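The members and lists were chosen with earlier results of these data known. Transcripts were deposited as UMI counts per gene and barcode (2836 barcodes, 32285 genes, 18170115 UMIs) and hashtags as counts for 2831 barcodes, and heavy chains as 2241 contigs with the V identity as a fraction, per the file headers. The submitters' processing notes name Cell Ranger 6.0.0, Seurat 4.2.1 and mm10, and a file header names Cell Ranger 6.0.2.

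HTODemux (Seurat 5.3.0, quantile 0.99) called a single hashtag for 1856 barcodes (65.6%), hashtags of several mice for 820, which were removed, and none for 155. From that rate, about 167.2 of the barcodes with 1 hashtag (9.01%) should be doublets within a mouse, and Scrublet called 3. The alternative ratio rule asks for 10 UMIs and 5 times the next hashtag. Cells with at least 500 genes, 1000 UMIs and under 10% mitochondrial UMIs were kept. Leiden clustering (scanpy 1.11.5, igraph 0.11.9, resolution 0.8) left out the 8 members, Ldha, antibody, mitochondrial, ribosomal and sex-linked genes, and a cluster was named with 3 markers at 1.5-fold or more in 10% of its cells. The 46 cells of a myeloid or dendritic cluster were left out.

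UMIs were summed per mouse and class (20 cells or more, 5 in GC B-like cells) and tested with edgeR 4.0.16 (R 4.3.3, TMM, filterByExpr, robust quasi-likelihood), adjusted over all genes tested, with DESeq2 1.42.0 as an alternative. Nothing in the sources says whether the mice were handled on separate days, so p-values measure the spread between these mice. Differences are log2 fold changes, deficient over sufficient, and CPM are not scaled further. Counts were also simulated with the same dispersion for every gene and no change in the mix of states, so recovery in these data may differ. In the simulation, edgeR found 35% of the genes given a log2 change of 1 and 93% of those given 2 over all B cells (9176 genes). In non-GC B cells (8589 genes) it found 43% and 97%, and in activated B-like cells (3640 genes) 18% and 90%. Recovery was lowest for the difference between GC and non-GC effects (4% and 40%) and for mutated against germline cells (8% and 71%). The text names the 8 members, Ldha, the 3 genes most alike to each member among those at 50 CPM or more in a state, and list genes with the smallest p in non-GC B cells, together with the 4 list genes that passed over all B cells, which were added after their values were seen. Of the 12 lists, those of T and NK cells (0 of 10 genes tested), plasminogen activation (2 of 11, median -0.69 over all B and 0.05 in non-GC B cells), dissociation stress (9 of 15, -0.18 and -0.07), myeloid cells (4 of 17, -0.40 and -0.36) and red cells (4 of 6, -4.06 and -4.39) had no gene past the edgeR threshold in either class.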

Additional observations from a re-analysis of the deposited data

Results flagged for a closer look

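Cd83 was singled out because the effect of the genotype differed between cell classes in a direct test. The log2 difference, LDHA-deficient over LDHA-sufficient, was -1.21 in GC B-like cells and 0.39 in non-GC B cells, and the fitted difference between them was -1.81 (edgeR adjusted p = 0.0247). In the GC B-like cells of LDHA-deficient mice it rests on 1, 5 and 7 Cd83 UMIs, found in 1, 2 and 1 cells. The call was lost in 10 of 15 alternatives, among them DESeq2 (-1.70, adjusted p = 0.785) and the ratio rule for hashtags (-0.28, edgeR adjusted p = 0.948), with which the effect in GC B-like cells was 0.29.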

How the results depend on the processing

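Values are genes called, members called or log2 differences, and the cause of each change was not tested unless named. With DESeq2, 203 genes against 79 were called over all B cells with 2 members, 1 against 8 in non-GC B, 1 against 5 in follicular, 0 against 1 in marginal zone and 4 against 0 in GC B-like cells. For the difference between GC and non-GC effects DESeq2 called 0 against 15 genes and 0 members (Slamf7 0.11), for mutated cells 118 against 992 and 0 members (Cd86 -0.04), and Cd44 in follicular cells came to 0.01. With median-of-ratios factors, the difference called 8 genes and 0 members (Slamf7 0.12) and the mutated cells 1 member. Without the filter, calls were 682 with 3 members over all B cells, 36 in non-GC B, 15 against 3 in activated, 23 in follicular, 4 in marginal zone and 24 in GC B-like cells (Slamf7 -0.12), and 27 for the difference.

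With ratio hashtag calls, 187 genes were called over all B, 1 in activated, 4 in marginal zone and 26 in GC B-like cells. Cd44 came to -0.01 in non-GC B, Slamf7 to -0.21 in activated and -0.08 in GC B-like cells, Cd83 to -0.03 in marginal zone and 0.29 in GC B-like cells, and in follicular cells Cd69 to 0.06, Cd44 to 0.04 and Cd40 to -0.20. For the difference 0 members were called, with Cd40 at 0.33 and Icam1 at 0.03. Clustering with the 8 members called 1 member over all B, 4 genes in non-GC B and 1 in GC B-like cells, and 4 genes for the difference (Cd69 -0.21, Cd44 -0.21, Slamf7 0.06), with follicular Cd44 at 0.11 and Cd40 at -0.10. Resolution 0.4 called 1 member over all B, and 5 genes and 0 members for the difference, with Slamf7 at -0.08 in activated and -0.28 in GC B-like cells and Cd40 at -0.02 in follicular cells. Resolution 1.2 called 5 genes in activated cells, and 5 genes and 0 members for the difference (Slamf7 0.02), with follicular Cd44 at 0.29 and Cd40 at -0.03 and marginal zone Icam1 at -0.15 and Slamf7 at -0.02. Equal cells per mouse called 145 genes and 1 member over all B cells. Without the highest Scrublet scores, 13 genes were called in non-GC B, and 6 genes and 0 members for the difference (Cd44 -0.15, Plaur -0.74, Slamf7 0.19), with follicular Cd44 at 0.07 and Cd40 at -0.08 and marginal zone Cd83 at -0.17 and Slamf7 at -0.02. Without the upper 10% of stress cells, 3 genes were called in non-GC B (Icam1 -0.06).

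Chosen after seeing the data, a minimum of 5 mutated cells called 1 member, Slamf7, and turned Icam1, not called, to 0.02. Shared chains kept called 332 genes and 1 member, Cd44, and turned Icam1, not called, to 0.20, and leaving out cells over 1% red cell UMIs changed no member's call. By mean log-normalised count the activated state had 0.361 for Cd44 and 0.408 for Icam1, both below GC B-like cells. By share of cells with a UMI it had 29.9% for Cd44 and 32.9% for Icam1, below GC B-like cells, and 40.9% for Cd40, below marginal zone cells.

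Leaving out 1 mouse gave 2 to 1459 genes and 0 to 5 members over all B, 4 to 18 genes in non-GC B, 1 to 10 in activated, 4 to 10 in follicular, 2 to 8 in marginal zone and 0 to 18 in GC B-like cells, and 1 to 71 genes and 0 to 1 members for the difference. Directions turned within these ranges for Icam1 over all B (-0.11 to 0.27), Cd69 in non-GC B (-0.24 to 0.24), and in activated cells Cd69 (-0.35 to 0.90), Cd40 (-0.03 to 0.95) and Plaur (-0.84 to 1.53). In follicular cells they did for Cd44 (-0.38 to 0.55), Cd40 (-0.11 to 0.28), Cd86 (-0.61 to 0.30), Icam1 (-0.56 to 0.11) and Plaur (-0.07 to 0.54), in marginal zone cells for Cd83 (-0.23 to 0.47) and Icam1 (-0.22 to 0.67), and in GC B-like cells for Slamf7 (-0.22 to 0.35). For the difference they did for Cd69 (-1.24 to 1.21), Cd44 (-0.09 to 0.25), Cd40 (-0.79 to 0.33) and Slamf7 (-0.26 to 0.33).

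A V identity under 0.98 left 1 mouse, resolution 0.4 gave no marginal zone cluster, and leaving a mouse out of the mutated comparison left no residual degree of freedom, so none gave a value. No paired analysis was possible because the hashtag numbers pair no mice across the genotypes, and only the difference between classes and the mutated cells were fitted within mice. Few GC B-like cells in LDHA-deficient mice and low UMI counts of Cd86 and Plaur limit the depth.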
